A study of Mus musculus with 11 samples.

Results

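Messenger RNA of 10 ion channel genes was followed in mouse microglia on 11 single-colour arrays. The genes were Kcnk13, Kcnk6, Kcnj2, Kcna3, Kcnn4, Hvcn1, Trpv2, Trpv4, Trpm2 and Trpm4, chosen as channels known in microglia and found on the array by matching each probe's RefSeq accession to a gene symbol. All 10 had a probe, out of 23329 symbols with a probe, and 9 of the 10 were among the 19555 genes tested. The exception was Kcnj2, whose single probe carried an outlier flag on 1 array. All mice were C57BL/6N. Adult microglia of females aged 12 to 24 weeks (A_FACS, 2 arrays) and microglia of pups of both sexes at postnatal day 1 to 3 (NB_FACS, 3 arrays) were sorted straight from brain on intermediate CD45 and high CX3CR1. Cultured newborn microglia came from flasks of mixed glia of 2 to 3 pooled brains, grown with conditioned medium rich in M-CSF. Per the study's methods the flasks were kept for weeks before the microglia were shaken off. They then spent 1 day in serum medium without cytokines (NB_Control, 3 arrays) or with hTGF-β1, hIL-34 and hCX3CL1 at 100 ng/mL each (NB_Stim, 3 arrays). Sorted and cultured cells thus differed in isolation and in weeks in the flask as well as in the 1 day of culture. Sorted adult and newborn cells differed in sex as well as age. These cannot be told apart here.

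Ion channels set the membrane potential of microglia and let calcium and protons cross the membrane. Potassium channels carry potassium out of the cell, which holds the membrane potential negative, sustains the drive for calcium entry and is a trigger of the NLRP3 inflammasome when the outflow is large. The proton channel Hv1 lets out the protons that the NADPH oxidase leaves behind, and channels of the TRP family admit sodium and calcium in answer to heat, stretch, oxidants or calcium itself.

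The 10 genes were read by 18 probes of 45 to 58 bases. Their GC content was 40.4% to 53.4%, and the middle of the distribution over all 60037 probes was a median of 45.1%. Probe sequences are shown so that the measured stretch of each transcript can be seen. They are given for the genes whose probes gave different answers and for 2 genes whose probe holds the letters AATAAA. For Trpm2, Kcnk13 and Trpm4 these are the first 30 bases of each probe:
Trpm2 MMXS49138: tggggatgagcaataccgggctttaatggg
Trpm2 MMXS45082: tgatctacgatcctcccttttacaccgctg
Trpm2 MMXS35924: ctcttcaccggcttcatctccttcagggat
Trpm2 MMXS23840: tatcctaatctggctacctcccaggcaaaa
Trpm2 MMXS01807: caatgcgcctgtggtcatcttccacatgaa
Kcnk13 MMXS26635: agacagagaacagcccgtatcccagccatc
Kcnk13 MMXS50442: acaaacattccagagtgtctctgggccttc
Trpm4 MMXS04917: acagtgactcggagcgtttgaaacgcacgt
Trpm4 MMXS00962: tctttgacttgggacgcaccgtcctctgcc
Trpm4 MMXS31368: ctggaattgacatcccagtgctccttcttc

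AATAAA is the hexamer of the signal that precedes the poly(A) tail, and its place in these transcripts was not checked. For Trpv4 and Kcnn4 the last 30 bases are shown, with AATAAA in capitals:
Trpv4 MMXS16269: cggggccgctggtgctcAATAAAtgtttat
Kcnn4 MMXS15879: accctcatactttgtAATAAAtggtaaacg
This hexamer was in 2 of the 18 probes (11.1%) and in 4.46% of all probes. Kcnk6, Kcnj2, Kcna3, Kcnn4, Trpv2 and Trpv4 had 1 probe each and so no second reading. The Kcnn4 probe and MMXS00962 of Trpm4 are assigned to transcript models that RefSeq marks as non-coding. The remaining genes had several, and their gene value was the mean over probes on the log2 scale. A probe's brightness depends on its sequence, so levels are compared between groups for 1 gene and never between genes.

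Several arrays stood apart from the others. The third replicates of the newborn groups shared slide 2 and all other arrays (8) were on slide 1. Replicates 1 and 2 of each cultured group were closer (SD of log2 differences over genes 0.26 and 0.29) than all other pairs within a group (0.39 to 0.70). Of the 10 microglia markers 9 were measured, and their summed intensity was 275345 to 299846 in A_FACS, 165502 to 189563 in NB_FACS, 39199 to 66659 in NB_Control and 142770 to 153104 in NB_Stim. P2ry12, the purinergic receptor that marks resting microglia, read 6.10 to 6.80 in NB_Control against 12.82 to 13.10 in NB_FACS. The summed intensity of 5 of 7 erythroid markers was 148744 to 204880 in NB_FACS, 8424 to 25204 in A_FACS and at most 128 in cultured cells. Fibroblast markers (7 of 7) summed to 990 to 1219 in NB_FACS, 1056 to 2193 in A_FACS, 30607 to 36575 in NB_Control and 18024 to 38673 in NB_Stim. Markers of border-associated macrophages (6 of 6) summed to 10730 to 13407 in NB_FACS, 287 to 670 in A_FACS, 26734 to 68554 in NB_Control and 12579 to 26952 in NB_Stim. Their directions differed: in NB_Control against NB_FACS 1 was called higher and 2 lower (15.8% and 13.9% of all genes). Mean Pf4 was 15.13 against 10.42 and Mrc1 13.33 against 13.15, while Lyve1 was 3.02 against 7.82 and Cd163 3.68 against 6.76. Endothelial markers (8 of 8) summed to 4951 to 6739 in NB_FACS, 6718 to 13489 in A_FACS, 1007 to 1141 in NB_Control and 2100 to 2460 in NB_Stim. In NB_Control against NB_FACS 5 of these 8 were called lower, as were 6 of the 9 microglia markers (13.9% of all genes). Of the 7 fibroblast markers 5 were called higher (15.8% of all genes). Array 2 of A_FACS had the highest sum of choroid plexus markers (5 of 7), at 125216 against 17388 on array 1, and array 3 of NB_FACS had a neutrophil sum (5 of 7) of 5100 against 198 and 247 on the other two. The part of these cells in the channel results was not tested, and in such bulk RNA fewer cells of a type and less RNA per cell cannot be told apart.

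**Figure D1:**
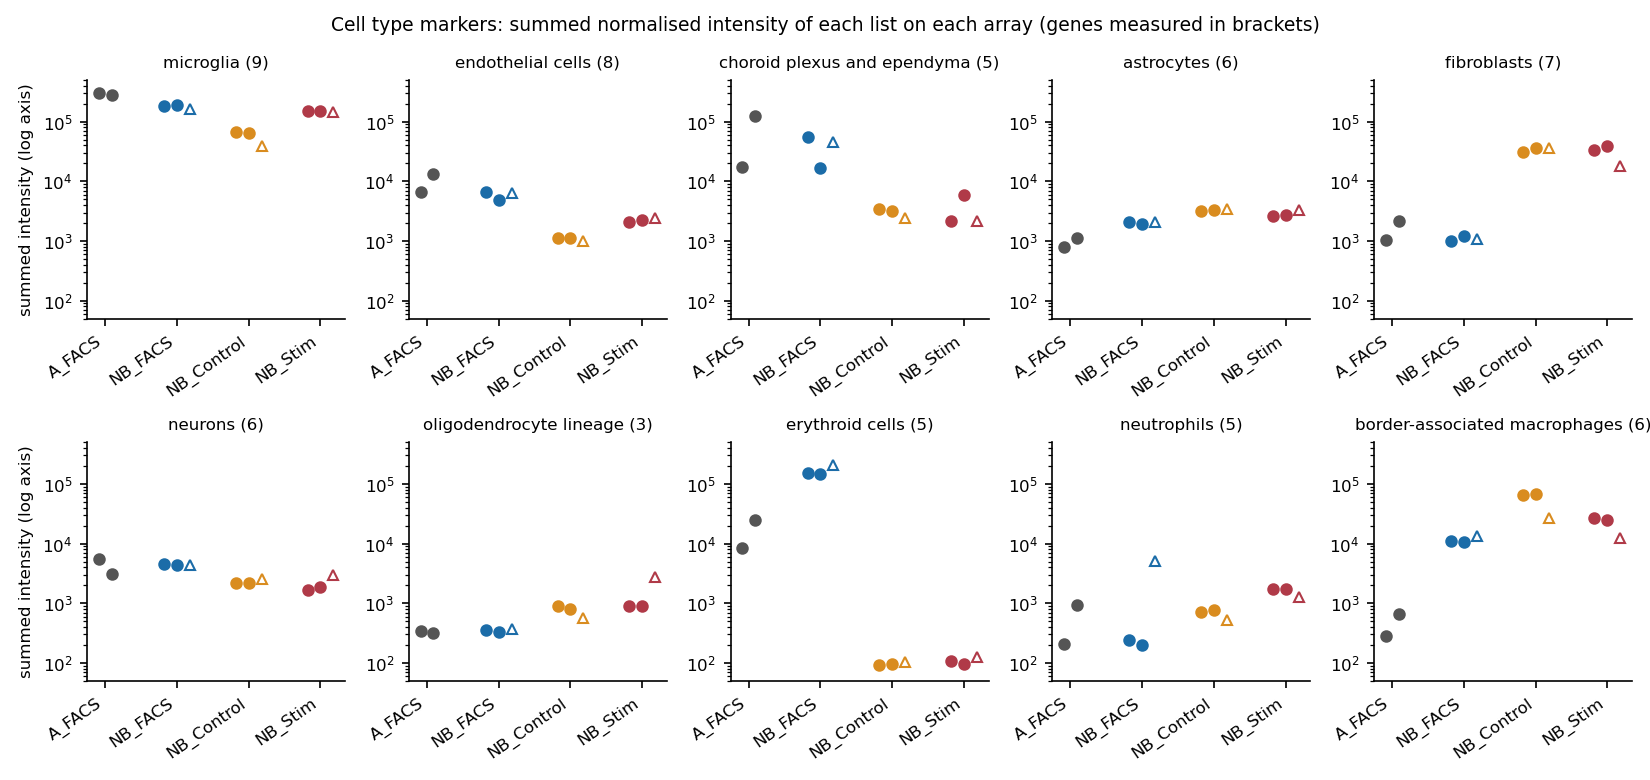
Summed normalised intensity (log axis, arbitrary units) of 10 cell type marker lists on each of the 11 arrays, by group; circles are slide 1, open triangles slide 2, and brackets give the genes measured. Erythroid sums were highest in NB_FACS, and fibroblast sums in the cultured groups were above those of all sorted arrays.

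Cultured cells held less mRNA of 5 of these channels than sorted newborn cells, and more of 2. In NB_Control against NB_FACS, 7 of the 9 tested genes were called at an adjusted p under 0.05 (77.8%), where 29.7% of all genes were called. The genes were chosen with earlier results of these data known, so this share describes the 9 and is no test of them as a set. Of these 7, Kcnk6, Kcna3, Trpm2, Kcnk13 and Trpm4 were lower (13.9% of all genes were called lower) and Hvcn1 and Trpv2 were higher (15.8% higher). The median difference of the 9 was -0.65 on the log2 scale against 0.09 over all genes. The arrays of both groups did not overlap for 8 of the 9, the exception being Kcnn4, while 44.2% of all genes did not overlap.

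The cytokines moved 1 of the 9 past the test. In NB_Stim against NB_Control, Trpv4 was called lower (11.1% of the 9), where 3.41% of all genes were called and 2.00% were called lower. In NB_Stim against NB_FACS 5 of 9 were called (31.1% of all genes): Hvcn1 was higher (16.0% of all genes) and Kcnk6, Kcnk13, Kcnn4 and Trpm2 were lower (15.1% of all genes). In that comparison 7 of 9 did not overlap, where 43.5% of all genes did not. The comparisons share NB_Control or NB_FACS arrays, so their values stand side by side and are not independent.

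Adult cells held more mRNA of 4 of the 9 than newborn cells. In A_FACS against NB_FACS 5 of 9 were called (22.7% of all genes). Trpm2, Kcnk6, Hvcn1 and Trpv4 were higher in the adult (9.75% of all genes were called higher) and Kcnn4 was lower (12.9% called lower). Groups did not overlap for 8 of 9 (the exception was Kcnk13), where 51.2% of all genes did not. Set against the cultures, the adult cells were called higher for 4 of 9 in NB_Control (40.8% of all genes called, 17.7% higher) and for 6 of 9 in NB_Stim (40.2% called, 17.5% higher), and no tested member was called lower. Groups did not overlap for 8 of 9 and 6 of 9, where 66.4% and 63.0% of all genes did not. An F test over the 4 groups passed for 8 of the 9, all but Kcna3 (adjusted p = 0.0797 from limma), and for 48.8% of all genes.

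**Figure D2:**
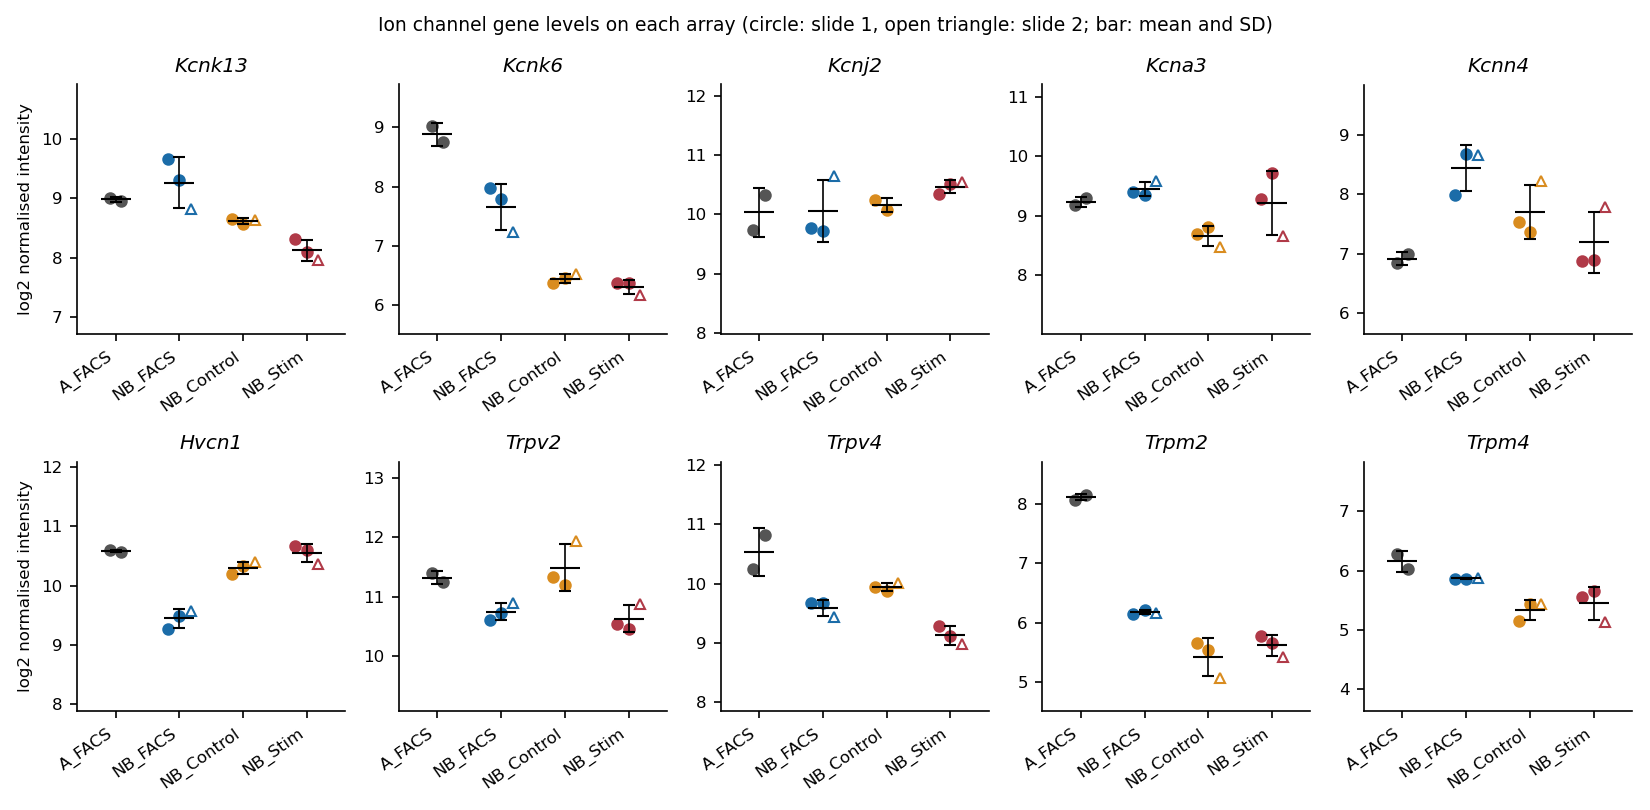
Level of each of the 10 genes on each array, in log2 normalised intensity, by group; circles are slide 1, open triangles slide 2, and bars give mean and SD. Panels span the same number of log2 units; Kcnj2 is drawn without the flagged NB_Control array. Trpm2 sat at 8.07 and 8.15 on the adult arrays and at or below 6.21 on all others.

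Tandem-pore potassium channels leak potassium at rest. Kcnk13 encodes THIK-1, the channel that carries much of the resting potassium current of microglia. Kcnk13 read 9.66, 9.31 and 8.81 in NB_FACS (replicates 1 to 3), 8.65, 8.56 and 8.64 in NB_Control, 8.31, 8.10 and 7.96 in NB_Stim, and 9.01 and 8.95 in A_FACS. Sorted newborn arrays spread widest, and both cultured groups lay below all of them. NB_Control was 1.56-fold below NB_FACS (log2 difference -0.65 ± 0.20 SE, adjusted p = 0.0347 from limma), with -0.88 within slide 1 and -0.18 within slide 2. NB_Stim was 2.20-fold below NB_FACS (-1.14 ± 0.20, adjusted p = 0.00190). The step from NB_Control to NB_Stim was -0.49 (95% interval -0.94 to -0.04, adjusted p = 0.276) and did not pass, and neither did adult against newborn at -0.28 (-0.78 to 0.22). Its order was NB_FACS, A_FACS, NB_Control, NB_Stim, in which no neighbouring pair passed a test. The culture call was lost on leaving out NB_FACS 1 or 2, any NB_Control array or NB_Stim 2, with differences of -0.87 to -0.45 over the 11 such fits and adjusted p up to 0.120. It was also lost in a fit of the groups compared alone (adjusted p = 0.0772) and with cultured replicates 1 and 2 averaged (adjusted p = 0.118).

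The probes of Kcnk13 gave differences of unequal size. Single probes were called in 25.6% of 44727 tests between NB_Control and NB_FACS. Probe MMXS26635 went from 7.65 ± 0.65 (SD, n = 3) in NB_FACS to 6.61 ± 0.12 in NB_Control and 5.88 ± 0.39 in NB_Stim. Probe MMXS50442 went from 10.87 ± 0.23 to 10.62 ± 0.09 and 10.36 ± 0.11. Both thus stood in the same order, but in NB_Control only the first was called (-1.04 ± 0.30, adjusted p = 0.0313, against -0.25 ± 0.15, adjusted p = 0.281). In NB_Stim against NB_FACS both were called, at -1.77 and -0.51, where 26.6% of all probes were. With MMXS50442, the brighter of the pair, standing for the gene, the culture difference was -0.25 and was not called.

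Kcnk6 encodes TWIK-2, a tandem-pore channel known in macrophages for potassium outflow ahead of NLRP3 activation. It read 7.97, 7.79 and 7.23 in NB_FACS, 6.37, 6.46 and 6.53 in NB_Control, 6.38, 6.37 and 6.17 in NB_Stim, and 9.02 and 8.75 in A_FACS. Adult arrays were highest and cultured arrays lowest, with no overlap between sorted newborn, adult and cultured arrays. The cultures lay 2.32-fold below NB_FACS without cytokines (-1.21 ± 0.19, adjusted p = 0.000972) and 2.56-fold below it with them (-1.36 ± 0.19, adjusted p = 0.000515). Adult cells were 2.33-fold above NB_FACS (1.22 ± 0.21, adjusted p = 0.00306) and 5.39-fold above NB_Control (2.43 ± 0.21, adjusted p = 2.48e-05). Between NB_Stim and NB_Control the difference was -0.14 (-0.57 to 0.28). These calls held in each of the 11 fits that left out 1 array, and culture differences within slides were -1.47 and -0.70.

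Kcnj2 encodes an inward rectifier that clamps the membrane near the potassium potential. It read 9.78, 9.71 and 10.65 in NB_FACS, 10.23 and 10.06 on the first NB_Control arrays, 10.34, 10.51 and 10.55 in NB_Stim, and 9.74 and 10.32 in A_FACS. The flagged spot on NB_Control 3 read 11.43 and was left out. Fitted without that array, Kcnj2 was called in no comparison: NB_Control less NB_FACS was 0.10 (-0.56 to 0.76), NB_Stim less NB_Control 0.32 (-0.34 to 0.98), NB_Stim less NB_FACS 0.42 (-0.17 to 1.01) and A_FACS less NB_FACS -0.02 (-0.68 to 0.65). The intervals leave room for changes in either direction. Within slide 1, NB_Stim lay 0.68 above NB_FACS, and within slide 2 it lay 0.10 below (log2 difference -0.10).

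Kcna3, a voltage-gated potassium channel known from activated lymphocytes and microglia, was lower in NB_Control. It read 9.40, 9.35 and 9.59 in NB_FACS, 8.69, 8.81 and 8.47 in NB_Control, 9.28, 9.72 and 8.65 in NB_Stim, and 9.18 and 9.30 in A_FACS. NB_Control was below every sorted array, and NB_Stim spanned both ranges. The culture difference was -0.79 ± 0.24 (1.73-fold lower, adjusted p = 0.0308), -0.63 within slide 1 and -1.12 within slide 2. It was no longer called when any NB_FACS or NB_Control array was left out (adjusted p up to 0.0926) or cultured replicates 1 and 2 were averaged (adjusted p = 0.0564). Cytokines added 0.56 (0.03 to 1.09, adjusted p = 0.304). Leaving out NB_Stim 3, the lowest stimulated array, raised that to 0.84 and it was called (adjusted p = 0.0392; over all alternatives 0.0392 to 1.00). Without that array the adult difference from NB_Control, 0.58, was called too (adjusted p = 0.0253, against 0.111 with all arrays).

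Kcnn4 encodes the intermediate-conductance potassium channel opened by calcium. It read 8.00, 8.68 and 8.66 in NB_FACS, 7.53, 7.37 and 8.22 in NB_Control, 6.89, 6.90 and 7.79 in NB_Stim, and 6.84 and 6.995 in A_FACS. On slide 2 each cultured group read higher than on slide 1. Adult cells were 2.88-fold below newborn cells (-1.53 ± 0.35, adjusted p = 0.0119), the one member called lower in the adult, and the call was lost without A_FACS 1 (-1.45, adjusted p = 0.0812). NB_Stim was 2.38-fold below NB_FACS (-1.25 ± 0.31, adjusted p = 0.0124), a call lost without NB_FACS 2, NB_Stim 1 or NB_Stim 2 (adjusted p up to 0.0507) and with cultured replicates 1 and 2 averaged (adjusted p = 0.0660). NB_Control less NB_FACS was -0.74 (-1.44 to -0.04, adjusted p = 0.108). With the replicate number as a block that difference was called (adjusted p = 0.0168), as it was without NB_Control 3 (-0.997, adjusted p = 0.0430; over all alternatives 0.0135 to 0.556).

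**Figure D3:**
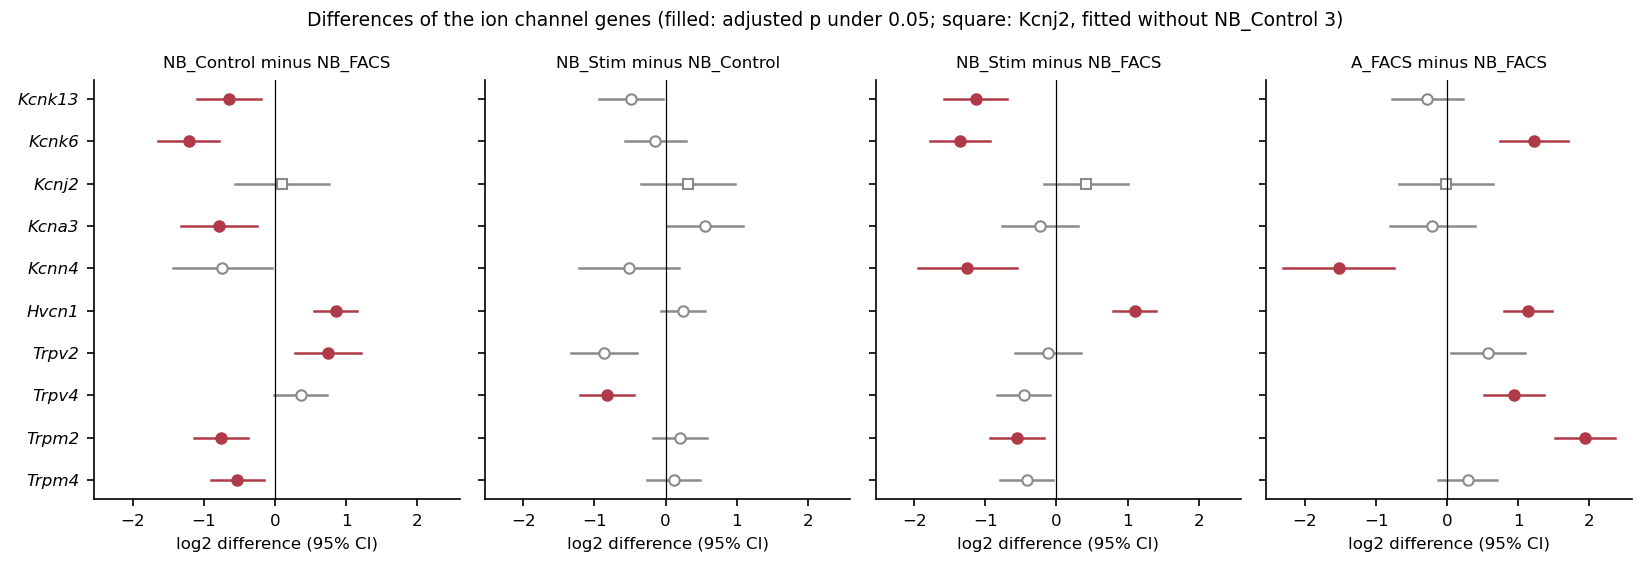
Log2 differences of the 10 genes in 4 comparisons with 95% intervals; filled red points passed an adjusted p under 0.05 in limma, open grey points did not, and the square is Kcnj2, fitted without NB_Control 3. In culture 5 genes were lower and 2 higher, with cytokines Trpv4 was lower, and adult cells were higher for 4 genes and lower for Kcnn4.

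The proton channel gene Hvcn1 was higher in adult and cultured cells than in sorted newborn cells. It read 9.28, 9.49 and 9.58 in NB_FACS, 10.20, 10.33 and 10.40 in NB_Control, 10.67, 10.61 and 10.37 in NB_Stim, and 10.60 and 10.57 in A_FACS. NB_FACS lay below all other arrays. NB_Control was 1.81-fold above it (0.86 ± 0.14, adjusted p = 0.00104), NB_Stim 2.14-fold (95% interval of the log2 difference 0.80 to 1.404, adjusted p = 0.000234) and A_FACS 2.20-fold (1.14 ± 0.15, adjusted p = 0.000742). Culture differences were 0.88 within slide 1 and 0.82 within slide 2, and all 3 calls held in every fit without 1 array. Between the other groups no test passed: NB_Stim less NB_Control was 0.24 (-0.06 to 0.55), A_FACS less NB_Stim 0.04 (-0.30 to 0.38) and A_FACS less NB_Control 0.28 (-0.06 to 0.62), the last without overlap of arrays. Both probes were called in each of the 3 comparisons with NB_FACS, with culture differences of 0.96 ± 0.15 and 0.76 ± 0.16. Of all probes 25.6% were called there for NB_Control, 26.6% for NB_Stim and 19.3% for A_FACS.

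Trpv2 and Trpv4 encode cation channels of the vanilloid TRP branch. Trpv2, which passes calcium at the surface and in endosomes of macrophages, read 10.61, 10.73 and 10.89 in NB_FACS, 11.33, 11.20 and 11.94 in NB_Control, 10.54, 10.46 and 10.88 in NB_Stim, and 11.40 and 11.24 in A_FACS. NB_Control lay above both other newborn groups. It was 1.68-fold above NB_FACS (0.74 ± 0.21, adjusted p = 0.0213), a call lost without NB_FACS 1 or 2 or without NB_Control 3 (0.52 to 0.89 over the fits without 1 array, adjusted p up to 0.0749). NB_Stim was 1.82-fold below NB_Control (-0.86 ± 0.21) and missed the threshold at adjusted p = 0.0571, with -0.76 within slide 1 and -1.06 within slide 2. With the replicate number as a block it passed (adjusted p = 0.00927; over all alternatives 0.00400 to 0.384). Adult less newborn was 0.57 (0.06 to 1.09, adjusted p = 0.107). It passed with that block (adjusted p = 0.00963) and without NB_Control 3 (adjusted p = 0.0401, and 0.00533 to 0.480 over all alternatives). The block matched adult to newborn arrays by number alone, and no pairing of them is known. NB_Stim and NB_FACS overlapped, with a difference of -0.12 (-0.58 to 0.35).

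Trpv4, a channel opened by warmth and cell swelling, was the member called under cytokines. It read 9.67, 9.67 and 9.43 in NB_FACS, 9.95, 9.89 and 10.02 in NB_Control, 9.29, 9.11 and 8.99 in NB_Stim, and 10.25 and 10.82 in A_FACS. The groups did not overlap in any pair, in the order A_FACS, NB_Control, NB_FACS, NB_Stim. NB_Stim was 1.77-fold below NB_Control (-0.82 ± 0.17, adjusted p = 0.0285), with -0.72 within slide 1 and -1.03 within slide 2. That call was lost without NB_FACS 2 or without any of the 6 cultured arrays (-0.90 to -0.75, adjusted p up to 0.105), and with cultured replicates 1 and 2 averaged (adjusted p = 0.219). The neighbours NB_Control and NB_FACS (0.36, -0.01 to 0.74, adjusted p = 0.142) and NB_FACS and NB_Stim (-0.46, -0.84 to -0.09, adjusted p = 0.0631) passed no test, although the latter passed without either adult array (adjusted p as low as 0.0291), with slide as a block (adjusted p = 0.0420) and with 75th percentile scaling (-0.53, adjusted p = 0.0297; over all alternatives 0.0291 to 0.246). Adult cells were 1.92-fold above NB_FACS (0.94 ± 0.19, adjusted p = 0.00599) and 1.497-fold above NB_Control (0.58 ± 0.19, adjusted p = 0.0318). Their arrays differed by 0.57, and without A_FACS 2 the adult difference from NB_Control was 0.30 and was not called (adjusted p = 0.266). It was also not called without NB_Control 1 or 2, with 75th percentile scaling (0.41, adjusted p = 0.0906), with cultured replicates averaged (adjusted p = 0.101) or in a fit of those groups alone (adjusted p = 0.0752).

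Trpv4 has a single probe, so its probe test repeats the gene test and is no second reading. Among the 17 member probes Trpv4 alone was called under cytokines, where 2.49% of all probes were. For that reason the 250 bases ahead of its start were taken from RefSeq (GRCm38.p6, chr5:114658422-114658671, minus strand):
Trpv4 upstream: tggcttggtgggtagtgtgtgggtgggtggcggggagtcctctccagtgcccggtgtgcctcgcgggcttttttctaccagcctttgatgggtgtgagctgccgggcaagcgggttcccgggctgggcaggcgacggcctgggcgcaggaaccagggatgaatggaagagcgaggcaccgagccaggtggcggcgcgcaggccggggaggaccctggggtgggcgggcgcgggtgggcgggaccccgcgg
This window was 72.0% GC, against a median of 52.4% over 32851 promoters. Searched on both strands, it held 0 matches to GAGGAA (PU.1), TGANTCA (AP-1) or CAGACA (SMAD), which were in 23.3%, 6.75% and 17.1% of all promoters. No letters are in capitals for that reason, and the absence speaks only of these letters in this window.

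Trpm2, a calcium-permeable channel opened by ADP-ribose in oxidative stress, had the largest difference between adult and newborn cells among the 9. It read 6.14, 6.21 and 6.17 in NB_FACS, 5.66, 5.54 and 5.06 in NB_Control, 5.78, 5.65 and 5.42 in NB_Stim, and 8.07 and 8.15 in A_FACS. Adult arrays were above and cultured arrays below all of the sorted newborn arrays. The adult level was 3.83-fold that of NB_FACS (1.94 ± 0.19, adjusted p = 0.000141), 6.47-fold that of NB_Control (adjusted p = 7.09e-06) and 5.64-fold that of NB_Stim (adjusted p = 1.40e-05). These folds rest in part on 1 probe at background in most newborn arrays. Without it (probes well above background on all arrays) they were 3.20-fold (1.68, adjusted p = 0.000449), 5.39-fold (2.43, adjusted p = 1.64e-05) and 4.49-fold (2.17, adjusted p = 4.10e-05). NB_Control was 1.69-fold below NB_FACS (-0.76 ± 0.17, adjusted p = 0.00749), with -0.58 within slide 1 and -1.11 within slide 2, and NB_Stim lay 1.47-fold below NB_FACS (-0.56 ± 0.17, adjusted p = 0.0318). The last call was lost without any NB_FACS array or without NB_Stim 2 or 3 (adjusted p up to 0.0915), and with normexp background correction (-0.27, adjusted p = 0.117), with cultured replicates 1 and 2 averaged (adjusted p = 0.0710) and with only probes well above background on all arrays (-0.49, adjusted p = 0.0809). NB_Stim less NB_Control was 0.20 (-0.18 to 0.58).

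Its 5 probes did not give 1 answer. Against NB_FACS, in the adult, where 19.3% of all probes were called, 4 of the 5 were called higher by 1.25 to 2.98, and MMXS01807 was not (0.66 ± 0.65, adjusted p = 0.533). MMXS49138 read 11.84 ± 0.31 (SD, n = 2) in A_FACS, 9.15 ± 0.22 (n = 3) in NB_FACS, 7.15 ± 0.68 in NB_Control and 7.45 ± 0.17 in NB_Stim, and its culture difference of -1.997 ± 0.31 was called (adjusted p = 0.00104). MMXS01807 read 7.92 ± 0.44, 8.18 ± 0.68 and 8.35 ± 1.30 in the newborn groups and was lower on slide 2 in each. MMXS35924 was called in culture as well (-0.64 ± 0.21, adjusted p = 0.0490), while MMXS23840 (-0.63) and MMXS45082 (-0.77) were not. MMXS45082 passed the filter on dim probes (well above background on all arrays of a group) through the adult alone, so its place among the 4 is no support. It was well above background on 1 NB_FACS array and on 0 NB_Control arrays, so no fold is taken from it. The gene mean thus averages probes that moved by different amounts.

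**Figure D4:**
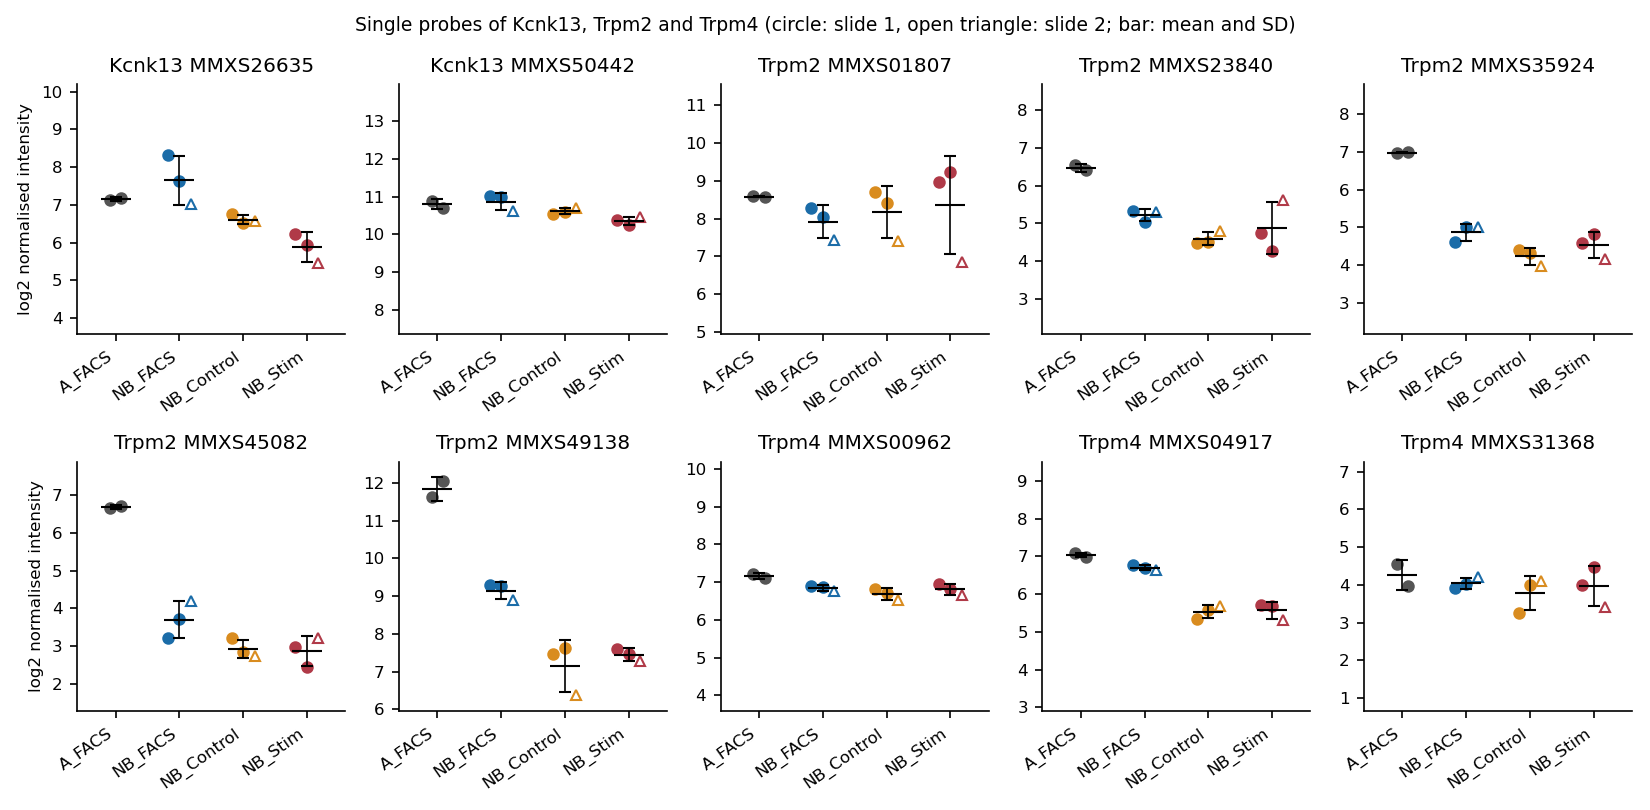
Single probes of Kcnk13 (2), Trpm2 (5) and Trpm4 (3) on each array, in log2 normalised intensity; circles are slide 1, open triangles slide 2, bars mean and SD. Panels span the same number of log2 units. MMXS49138 of Trpm2 went from 9.15 in NB_FACS to 7.15 in NB_Control and MMXS01807 from 7.92 to 8.18. MMXS04917 was the Trpm4 probe called in culture.

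Trpm4 encodes a channel that calcium opens but that passes only monovalent ions. It read 5.86, 5.87 and 5.87 in NB_FACS, 5.14, 5.44 and 5.44 in NB_Control, 5.56, 5.66 and 5.13 in NB_Stim, and 6.28 and 6.03 in A_FACS. Cultured arrays were below all sorted arrays. NB_Control was 1.44-fold below NB_FACS (-0.53 ± 0.17, adjusted p = 0.0365), a call lost without any NB_FACS or NB_Control array or without NB_Stim 1 (adjusted p up to 0.140), with its brightest probe (-0.16, adjusted p = 0.426) and with cultured replicates averaged (adjusted p = 0.111). NB_Stim less NB_FACS was -0.42 (-0.79 to -0.05, adjusted p = 0.0860), and was called with normexp (-0.25, adjusted p = 0.0264) and with only probes well above background on all arrays (-0.58, adjusted p = 0.00418). Of its 3 probes MMXS04917 went from 6.70 ± 0.06 to 5.54 ± 0.18 (-1.16 ± 0.16, adjusted p = 0.000473), and MMXS00962 (-0.16 ± 0.14) and MMXS31368 (-0.26 ± 0.31) were not called. Adult cells were above NB_Control by 0.82 ± 0.19 (adjusted p = 0.00605) and above NB_Stim by 0.70 ± 0.19 (adjusted p = 0.0131), both lost without A_FACS 1 (adjusted p of 0.0612 and 0.110). The adult also held more Kcnk13 than NB_Stim (0.86 ± 0.22, adjusted p = 0.0128, lost without A_FACS 1 at 0.0766) and more Trpv2 (0.69 ± 0.23, adjusted p = 0.0379, lost without either adult array, NB_FACS 2, NB_Control 1, NB_Stim 1 or NB_Stim 2, at up to 0.183). In NB_Stim the calls of Kcnk13 and Trpm4 were also lost with the brightest probe (0.44 and 0.35, adjusted p = 0.0580 and 0.0852), that of Trpm4 in a fit of those groups alone (adjusted p = 0.0616), and that of Trpv2 with 75th percentile scaling (adjusted p = 0.0682), no filter on dim probes (adjusted p = 0.0508) or cultured replicates averaged (adjusted p = 0.113).

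Other potassium channel genes are given by family, against 15.8% of all genes called higher and 13.9% lower in culture, 2.00% lower with cytokines, and 9.75% higher and 12.9% lower in the adult. Of 11 other tandem-pore genes tested, 1 was lower in NB_Control than in NB_FACS, 1 lower in NB_Stim than in NB_Control and 3 lower in the adult, and 0 were called higher in these comparisons. Kcnk12, which encodes the relative THIK-2 of Kcnk13's product, read 7.08, 7.13 and 6.38 in NB_FACS and 3.37, 4.203 and 3.50 in NB_Control (adjusted p = 0.000231). Kcnk5 read 4.59, 4.72 and 4.03 in NB_Control and was not well above background in NB_Stim, so that it was at least 1.96-fold lower with cytokines (adjusted p = 0.0175). Of 9 other calcium-activated genes Kcnn2, a small-conductance relative of Kcnn4, read 5.22, 5.09 and 4.70 in NB_FACS. It was not well above background on any NB_Control or A_FACS array, at least 2.96-fold and 3.38-fold lower (adjusted p = 9.92e-05 and 0.000718). Its probe passed the filter on dim probes through NB_FACS alone, the group where it is high, so these calls are no support. Among 11 inward rectifiers Kcnj16 was called in culture, going from 5.28, 5.44 and 5.41 to 2.09, 1.21 and 3.20, with only 1 of those 3 arrays well above background (adjusted p = 0.00195). Among 26 voltage-gated genes and beta subunits 2 were higher and 1 lower in culture, with Kcnq5 at least 2.07-fold higher (adjusted p = 0.00189). Medians of these lists in culture were -0.02, 0.19, 0.12 and 0.13, near the 0.09 of all genes.

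Of 18 other TRP genes 3 were higher and 3 lower in culture (15.8% and 13.9% of all genes), and 1 lower with cytokines (2.00% of all genes). Pkd2, the polycystin cation channel, went from 7.85, 7.90 and 7.54 to 9.36, 9.42 and 8.91 (adjusted p = 0.000393), and Trpv6, a calcium-selective channel, from 5.28, 5.10 and 5.04 to 3.75, 3.79 and 3.85 (adjusted p = 0.000292). Mcoln2, an endolysosomal channel, read 7.25, 7.31 and 7.59 in NB_Control, 5.04, 4.98 and 5.56 in NB_Stim, 6.81, 6.95 and 6.76 in NB_FACS and 2.88 and 3.09 in A_FACS. It fell 4.56-fold with cytokines (adjusted p = 0.000217) and was lower in the adult (adjusted p = 6.22e-06). On A_FACS 1 the mean of its 2 probes lay below 3.66, the lowest signal well above background there, so that no fold is given. Of 11 genes of store-operated entry and calcium release, 5 were higher in the adult and 0 lower (9.75% and 12.9% of all genes), with a median of 0.57 against -0.01 over all genes. Itpr2, an IP3 receptor, read 10.50 and 10.50 in A_FACS, 8.84, 8.74 and 8.49 in NB_FACS and 7.45, 7.52 and 7.35 in NB_Control, the order also seen for Kcnk6 and Trpm2. Orai1, the pore of store-operated entry, was 2.29-fold lower in NB_Stim than in NB_FACS (adjusted p = 0.00438).

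The same shares of all genes apply to the partners of the channels, 15.8% higher and 13.9% lower in culture and 2.00% lower with cytokines. Of 7 NADPH oxidase subunits, which Hv1 serves, 3 were higher and 2 lower in culture. Cybb, the catalytic subunit, went from 9.53, 9.61 and 9.05 in NB_FACS to 14.24, 14.03 and 13.78 in NB_Control, 24.6-fold higher (adjusted p = 0.000644), while Rac2 was 1.80-fold lower (adjusted p = 0.0306). With cytokines Ncf1, a cytosolic subunit, rose 1.47-fold (adjusted p = 0.0369) and Ncf4 fell 1.70-fold (adjusted p = 0.00885). Of 9 genes of the inflammasome and interleukin-1 release, 3 were lower and 1 higher in culture, 3 lower with cytokines, and 2 higher and 1 lower in the adult (9.75% and 12.9% of all genes). Nlrp3, the sensor that answers potassium outflow, read 6.64, 6.48 and 4.85 in NB_FACS and 8.86 and 8.25 in A_FACS, and was not well above background in NB_Control, at least 5.87-fold lower than NB_FACS (adjusted p = 8.41e-05). Casp1, which matures interleukin-1, went from 8.24, 8.78 and 8.71 to 9.46, 9.45 and 9.97 (adjusted p = 0.00338), and Casp4 fell 3.70-fold with cytokines (adjusted p = 0.00486). Of 15 chloride and volume-regulated channels 1 was higher and 3 lower in culture, against 15.8% and 13.9% of all genes. Ano6, a calcium-activated scramblase, was 3.41-fold higher (adjusted p = 2.17e-05), Lrrc8b 2.42-fold lower (adjusted p = 0.00117), and Clcn5 was 1.74-fold lower with cytokines (adjusted p = 0.0124).

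**Figure D5:**
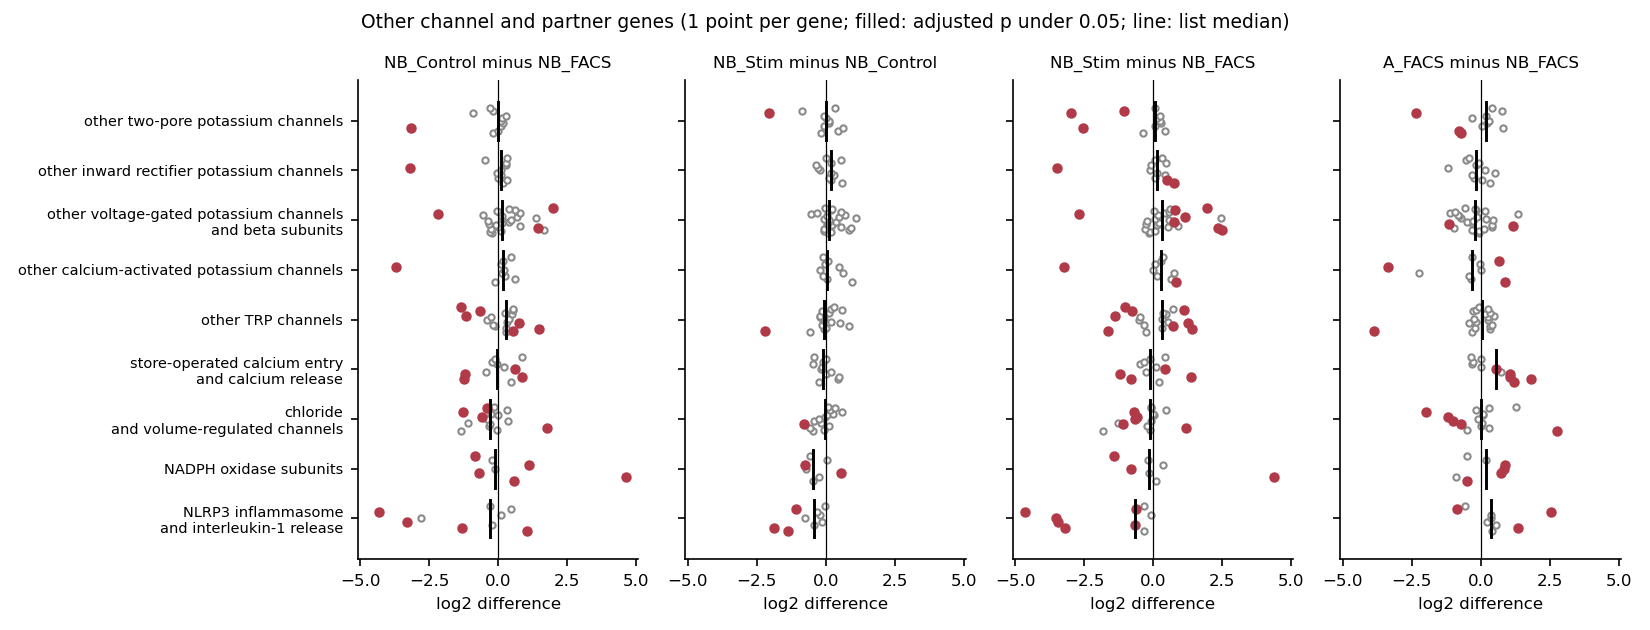
Log2 differences of the other channel and partner genes in 4 comparisons, 1 point per gene, filled red where the adjusted p was under 0.05; black lines are list medians. Points of genes not well above background in a group are fitted values, not bounds. Cybb stood at 4.62 in the culture panel, and 5 of 11 store-operated entry and release genes were called higher in the adult, where 9.75% of all genes were.

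In NB_Stim against NB_FACS, further genes of these lists were called. Kcnk5 was at least 3.72-fold lower (adjusted p = 0.000280), Kcnj16 was at 1.27, 1.18 and 3.17 against 5.28, 5.44 and 5.41, and Nlrp3 was at least 5.73-fold lower (adjusted p = 5.57e-05). Kcna4, a voltage-gated relative of Kcna3, was at least 4.07-fold higher (adjusted p = 0.0123), with 1.46 within slide 1 and 4.56 within slide 2 on the log2 scale. Kcnma1, the large-conductance calcium-activated channel, was 1.77-fold higher (adjusted p = 0.0293), Kcnj10 1.68-fold (adjusted p = 0.0203), Itpr3 2.57-fold (adjusted p = 0.000102) and Pkd2 2.65-fold (adjusted p = 0.000519). In the adult against NB_FACS, Ncf4 was 1.86-fold higher (adjusted p = 0.00158). Ano1, a calcium-activated chloride channel, was called higher there too (adjusted p = 0.0281, 2 of 3 NB_FACS arrays well above background). It read 6.11 and 7.02 in A_FACS and 2.88, 4.40 and 4.08 in NB_FACS. On NB_FACS 1 it lay below 3.97, the lowest signal well above background there, so that no fold is given. Its probe passed the filter on dim probes through A_FACS alone, the group where it is high, so this call is no support.

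For each member the 2 genes with the nearest pattern were found from the root mean square difference of levels, each centred on its own mean, over the 11 arrays. These differences were 0.11 to 0.24, against spreads of the members themselves of 0.34 to 0.99. Nearest were Dele1 and Dnttip1 to Kcnk13, Btaf1 and Tanc2 to Kcnk6, Srrd and Prcp to Kcna3, Ccdc34 and Pter to Kcnn4, and Dclre1b and Pygo2 to Hvcn1. For the TRP genes they were Trappc6b and Tsen34 to Trpv2, Tk2 and Gstk1 to Trpv4, Klhdc8b and Cfap74 to Trpm2, and Mir1949 and Sar1a to Trpm4. Among the members, Kcna3 and Trpm4 were the closest pair at 0.31, and Kcnk6 and Trpm2, both highest in the adult and lowest in culture, differed by 0.40. The points share arrays, slides and normalisation, and the likeness is a description.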

How the data were processed

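RNA of 11 samples was hybridised to Agilent mouse arrays, 1 colour and 1 array per sample. Per the file headers, Feature Extraction 11.5.1.1 gave the deposited intensity of each spot, background-corrected and not normalised between arrays. The authors' value table held the same intensities, with 0 values differing beyond a relative tolerance of 1e-05. Here the 1439 control spots and 138 probes without an unflagged spot on every array were dropped, log2 intensities were quantile normalised, and a filter for probes well above background on all arrays of at least 1 group left 44727 probes and 19555 genes (mean over probes, 4901 genes with several). Gene names came from RefSeq accessions.

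Limma 3.58.1 in R 4.3.3 fitted 1 mean per group on all 11 arrays, with Benjamini-Hochberg adjustment over all genes, called at an adjusted p under 0.05. The study's methods call the samples independent biological replicates; their number limits the precision. The channel genes and the gene lists were chosen with earlier results of these data known. Other genes named were, in each list and comparison, the called gene with the largest rise and that with the largest fall, and the 2 nearest patterns of each member. Where a probe was not well above background on any array of a group, folds are lower bounds against the lowest signal well above background. The fitting script was tested on simulated data.

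Replicate numbers were tried as a pairing of the newborn samples, since the residuals of same-numbered samples correlated at 0.11 to 0.49 in all pairs. Replicates 1 and 2 of different groups also correlated across numbers, at 0.19 to 0.36, and replicate 3 was slide 2 in each group. Pairing by number and sharing a slide thus cannot be told apart, and the main fit used no pairing. Alternatives were 75th percentile scaling, normexp (offset 50), probe filters, brightest probe, slide and replicate blocks, Tukey's test, averaging of close replicates and leaving out each array.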

Additional observations from a re-analysis of the deposited data

How the results depend on the processing

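Of 1350 recomputed member differences 1234 kept direction and side of the threshold, 85 lost and 22 gained a call, and 9 changed sign, all between groups that were not called apart. Those 9 were A_FACS less NB_Stim for Hvcn1 (-0.010 with the brightest probe, -0.050 without NB_Stim 3), Kcna3 (-0.081 with the slide block, -0.081 with the replicate block, -0.039 without A_FACS 2, -0.26 without NB_Stim 3) and Kcnn4 (0.028 without NB_Stim 3), A_FACS less NB_Control for Trpv2 (0.056 without NB_Control 3), and NB_Stim less NB_FACS for Kcna3 (0.052 without NB_Stim 3). Over the fits without 1 array these differences ran, in the same order, from -0.050 to 0.097, -0.26 to 0.27, -0.43 to 0.028, -0.32 to 0.056 and -0.48 to 0.052. The cytokine calls depended most on the setting. Members called were 2 under 75th percentile scaling, normexp, the stricter filter, the slide block, the replicate block and Tukey's test, and 0 with close cultured replicates averaged or with Tukey's test after Benjamini-Hochberg. All genes called by the cytokines were 906 with 75th percentile scaling, 1009 with normexp and 730 with the stricter filter. With the slide block they were 1476, with the replicate block 1193 and with averaging 118. Tukey's test gave 1590, and 183 after Benjamini-Hochberg. For NB_Control against NB_FACS, averaging left 4 members and 4065 genes, and Tukey's test after adjustment 3 members and 3547 genes. For NB_Stim against NB_FACS these were 3 members and 4211 genes, and 3 members and 3620 genes. For A_FACS against NB_FACS, 2923 genes were called in a fit of those groups only and 2014 with the adjusted Tukey's test. With each array left out, calls ranged over 4516 to 6454 genes and 3 to 7 members in culture, 304 to 703 genes and 0 to 1 members with cytokines, 4638 to 6581 genes and 3 to 6 members for NB_Stim against NB_FACS, and 2456 to 5124 genes and 4 to 6 members with age. The replicate block changed no member call beyond those of Kcnn4 and Trpv2 given above. The cause of these shifts was not tested. Treating flagged spots as missing or keeping them, and fitting single probes, were chosen after seeing the data.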
